A study of Rattus norvegicus with 93 samples.

Results

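Topotecan was given to rats as the first or as the second of 2 infusions, and the difference between these orders in bone marrow 1 h after dosing ended is described here. The comparison is a difference of differences, in which the response to topotecan given first (topotecan/D5W minus NaCl/D5W) is set against the response to topotecan given second (D5W/topotecan minus D5W/NaCl). It rests on 16 of the 93 arrays of the study, 4 in each of 4 groups, chosen by treatment and time alone. The study examined how topotecan and oxaliplatin, alone and in both orders, act on the marrow of male Sprague-Dawley rats aged 8 weeks that carried a femoral vein cannula. Each rat had 2 intravenous infusions of 30 min with 30 min between them, and femur marrow was taken at 1, 6 or 24 h for Affymetrix expression arrays, 1 array per rat. Topotecan/D5W rats received topotecan at 4.7 mg/kg and then 5% dextrose in water (D5W). NaCl/D5W rats received 0.9% NaCl and then D5W. D5W/topotecan rats received D5W and then topotecan at the same dose, and D5W/NaCl rats received both vehicles in that order. At sampling, topotecan had therefore ended 2 h earlier where it came first and 1 h earlier where it came second, so that order and time since the drug cannot be told apart. Positive differences below mean a higher value with topotecan first.

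Topotecan is a camptothecin that traps topoisomerase I, the enzyme that relaxes supercoiled DNA ahead of transcription and replication, on the strand it has cut. RNA polymerase II and replication forks that meet such a trapped enzyme are stopped or delayed, and the broken ends activate p53. Inhibitors of this enzyme are known to lower the transcripts of long genes in cultured mouse neurons, and proliferating marrow is a tissue in which the drug is toxic.

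The deposited values are log2 signals of 12532 probe sets after 28 control probe sets were set aside, and 10002 of the 12532 carried 1 gene symbol, for 7810 genes. Medians of the 16 arrays lay between 8.91 and 9.22, and pairs of arrays correlated at 0.924 to 0.993 across probe sets, with no identical pair. The marrow markers were present: the erythroid list of 31 genes averaged 11.92 to 12.38 in topotecan/D5W rats, 12.10 to 12.46 in NaCl/D5W rats, 11.78 to 12.20 in D5W/topotecan rats and 12.22 to 12.44 in D5W/NaCl rats, and Hbb, a chain of hemoglobin, averaged 15.32 over all arrays. One library stood apart, since the 27 skeletal muscle genes averaged 7.48 in topotecan/D5W rat 25 and 6.12 to 6.48 in the 15 other rats. Sample codes put the topotecan/D5W, NaCl/D5W and D5W/NaCl rats in columns 01 and 03 and the D5W/topotecan rats in columns 02 and 04. What a column stands for is not stated, and topotecan second and the code column cannot be told apart within these 4 groups. In bulk marrow, fewer cells of a type and less RNA per cell cannot be told apart either.

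Calls required a Benjamini-Hochberg adjusted p under 0.01 by limma and a difference of more than 2-fold. By this rule the responses to the 2 orders differed for 196 probe sets at 1 h, which was 1.56% of those tested. Of these, 128 were higher with topotecan first (1.02% of those tested) and 68 were lower (0.543%). Differences among the 128 ranged from 1.00 to 2.15 on the log2 scale, with a median of 1.16, and those among the 68 reached down to -1.85, with a median of -1.18. The order of the vehicles alone gave 0 calls by limma at the same threshold, with 709 probe sets at an unadjusted p under 0.05. Topotecan first against its own vehicle gave 506 calls (4.04%), of which 138 were higher (1.10%) and 368 lower (2.94%), and topotecan second gave 672 (5.36%), of which 147 were higher (1.17%) and 525 lower (4.19%). Top1, which encodes the drug's target, was lower under both orders, by -0.49 on the log2 scale with topotecan first (adjusted p = 1.89e-04) and by -0.64 with topotecan second (adjusted p = 1.39e-06). The order difference for Top1, 0.15 with an SE of 0.16, did not pass (adjusted p = 0.539).

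The called probe sets fell into a few kinds of response, described here by calls that share the data of the order difference. Of the 128 higher ones, 99 were not called with topotecan first and had fallen with topotecan second, 13 had risen with topotecan first and were not called with topotecan second, 15 were called under neither order, and 1, for Zeb2, had fallen under both orders and further with topotecan second. Of the 68 lower ones, 43 had fallen with topotecan first and were not called with topotecan second, 9 had fallen under both orders, 5 had risen with topotecan second alone, and 11 were called under neither. The 5 that rose with topotecan second comprised 3 unnamed probe sets, Ggct, which encodes an enzyme of glutathione turnover, and Dancr, a long noncoding RNA, both named here after their values were seen. Over the whole array, 135 probe sets had fallen under both orders and 65 had risen under both.

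**Figure D1:**
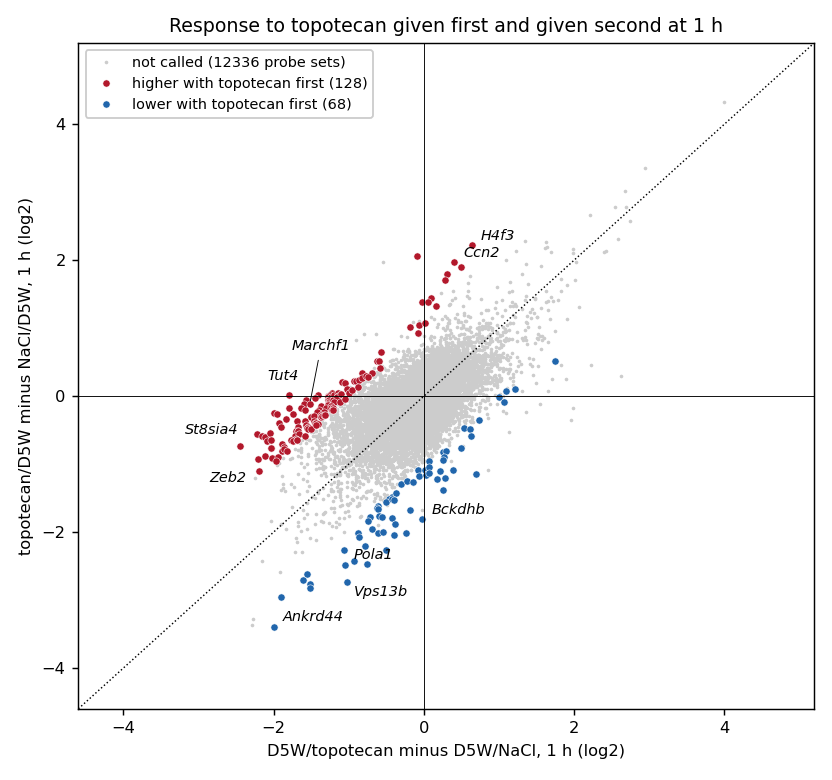
Response of each probe set to topotecan at 1 h, as log2 differences from vehicle, with D5W/topotecan minus D5W/NaCl on the horizontal axis and topotecan/D5W minus NaCl/D5W on the vertical axis; the dotted line marks equal responses. The 128 probe sets higher with topotecan first (red) lie mostly left of 0 and near 0 on the vertical axis, and the 68 lower ones (blue) mostly below 0.

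Most of the genes that were higher with topotecan first were within 2-fold of vehicle in those rats and reduced with topotecan second. With topotecan first, the quartiles of the 128 probe sets were -0.48 and 0.04. By limma at adjusted p under 0.01 without a minimum fold, 38 of the 128 were then below vehicle and 16 above. Over all 12532 probe sets, 3136 (25.0%) were below and 1042 above. Tut4, a uridylyltransferase that acts on small RNAs and poly(A) tails, had the largest difference of a named gene. Its log2 signal was 7.64, 7.72, 7.37 and 7.34 in topotecan/D5W rats, against 7.51, 7.55, 7.47 and 7.46 in NaCl/D5W rats. It was 6.05, 5.94, 6.12 and 6.23 in D5W/topotecan rats, against 7.81, 7.86, 8.01 and 7.83 in D5W/NaCl rats. Every D5W/topotecan rat lay below every rat of the other 3 groups, while the topotecan/D5W and NaCl/D5W rats overlapped. The order difference was 1.81 with an SE of 0.23 (adjusted p = 1.82e-08). All NaCl/D5W rats lay below all D5W/NaCl rats, so the 1.81 includes a difference between the vehicles.

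St8sia4, which encodes a polysialyltransferase, gave 8.37, 8.52, 8.50 and 8.89 in topotecan/D5W rats and 8.76, 9.19, 9.35 and 9.16 in NaCl/D5W rats. With topotecan second the values were 6.88, 6.68, 7.29 and 6.77, against 9.10, 9.18, 9.11 and 9.13 in D5W/NaCl rats. The D5W/topotecan rats again lay lowest without overlap, and the difference was 1.68 with an SE of 0.27 (adjusted p = 2.06e-06). Akap13, an anchoring protein and activator of RhoA, followed the same course over a gene of 307 kb, with 10.06, 10.17, 10.24 and 10.39 in topotecan/D5W rats, 10.36, 10.41, 10.35 and 10.21 in NaCl/D5W rats, 8.67, 8.59, 8.79 and 8.89 in D5W/topotecan rats and 10.11, 10.26, 10.46 and 10.48 in D5W/NaCl rats. Its difference was 1.47 with an SE of 0.15 (adjusted p = 6.67e-12). A second probe set of Akap13 gave 0.51 and was not called.

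Marchf3, which encodes a membrane-bound ubiquitin ligase, differed by 1.73 with an SE of 0.24 (adjusted p = 1.50e-07), with responses of -0.25 to topotecan first and -1.99 to topotecan second. Marchf1, whose product, a ligase of the same family, removes MHC class II and CD86 from the surface of antigen-presenting cells, gave 8.50, 8.63, 8.46 and 8.85 in topotecan/D5W rats, 9.11, 8.78, 8.45 and 8.60 in NaCl/D5W rats, 7.45, 7.20, 7.30 and 7.45 in D5W/topotecan rats and 8.57, 8.98, 8.79 and 9.12 in D5W/NaCl rats. The fall was again limited to the D5W/topotecan rats among these groups, and the difference was 1.39 with an SE of 0.23 (adjusted p = 3.49e-06). At 859 kb, Marchf1 lay far above the length of most genes in this set. Cblb, a cytosolic ubiquitin ligase that restrains lymphocyte activation, was lower under both orders, with responses of -0.65 to topotecan first and -2.03 to topotecan second and a difference of 1.39.

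The higher set also held chromatin regulators and blood transcription factors. Among the regulators were Jmjd1c, a member of the KDM3 demethylase family (1.49), Arid4b, a subunit of a histone deacetylase complex (1.48), Cdyl, a chromodomain corepressor (1.45), Crebbp, a histone acetyltransferase (1.45), and Tet2, which oxidizes methylcytosine (1.15). Other probe sets of Crebbp gave 0.81 and -0.09, and the last was opposite in sign to the called one. Ets1, a lymphoid transcription factor, differed by 1.26, Runx1, which is required for definitive hematopoiesis, by 1.05, and Foxp1, which acts in B cell development, by 1.05. Foxp1 spans 691 kb and Runx1 235 kb. Runx1 values were 10.43, 10.45, 10.25 and 10.42 in topotecan/D5W rats, 10.78, 10.91, 10.96 and 10.87 in NaCl/D5W rats, 9.42, 9.15, 9.66 and 9.69 in D5W/topotecan rats and 10.96, 10.89, 11.14 and 11.10 in D5W/NaCl rats. Both topotecan groups lay below their vehicles without overlap, and the D5W/topotecan rats lay lower still. Without D5W/topotecan rat 86, Runx1 (0.94) and Tet2 (0.99) fell short of 2-fold, as did Foxp1 in 4 of the 16 fits that left out 1 rat (lowest 0.94).

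Zeb2, a transcriptional repressor used in several blood lineages, was the 1 higher probe set called as fallen under both orders. It gave 7.87, 8.03, 7.95 and 7.71 in topotecan/D5W rats, 8.91, 9.12, 9.20 and 8.72 in NaCl/D5W rats, 6.63, 6.64, 6.90 and 7.11 in D5W/topotecan rats and 8.99, 8.87, 9.24 and 8.92 in D5W/NaCl rats. The 4 rats of each topotecan group were separate from each other and from both vehicles. The order difference was 1.09 with an SE of 0.24 (adjusted p = 4.05e-04), and it stood just at 2-fold and was not called without NaCl/D5W rat 8. Other probe sets of Zeb2 gave 0.67, 0.78, 1.05 and 0.24, and none of these was called. The one at 0.24 had responses of only 0.08 to topotecan first and -0.16 to topotecan second.

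A smaller group had risen with topotecan first and was not called with topotecan second. It held 3 histone genes, which package DNA and whose transcripts are made mainly in S phase. H4f3, a histone H4 gene, gave 9.39, 8.65, 9.51 and 9.59 in topotecan/D5W rats against 6.94, 7.50, 6.63 and 7.19 in NaCl/D5W rats. It gave 7.10, 7.73, 8.09 and 7.63 in D5W/topotecan rats against 6.98, 6.86, 6.89 and 7.23 in D5W/NaCl rats. All topotecan/D5W rats were above all 12 others, whereas the D5W/topotecan and D5W/NaCl rats overlapped. That overlap came from the D5W/topotecan rat at 7.10 alone, and the response to topotecan second was 0.64. The difference was 1.58 with an SE of 0.38 (adjusted p = 0.00155).

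H2ac25, a histone H2A gene, gave 10.22, 9.42, 10.49 and 9.63 in topotecan/D5W rats, 7.90, 8.56, 7.81 and 8.29 in NaCl/D5W rats, 8.35, 8.76, 9.23 and 8.47 in D5W/topotecan rats and 8.36, 8.35, 8.35 and 8.54 in D5W/NaCl rats, a difference of 1.49 with an SE of 0.28 (adjusted p = 5.40e-05). H1f2, a linker histone gene, gave 13.23, 13.01, 13.30 and 13.14 in topotecan/D5W rats, 11.71, 11.93, 11.53 and 11.95 in NaCl/D5W rats, 12.09, 12.18, 12.44 and 11.94 in D5W/topotecan rats and 12.04, 12.05, 12.10 and 12.28 in D5W/NaCl rats, a difference of 1.34 with an SE of 0.21 (adjusted p = 1.09e-06). In both genes the topotecan/D5W rats lay above all others. Histone genes have near-identical copies, so the probe sets may read more than 1 copy and the assignment to a single gene is uncertain. Per the methods, RNA was copied from an oligo-d(T) primer. The values therefore cover transcripts with a poly(A) tail and may not be the level of all histone transcripts.

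The promoters of these 3 genes are shown because their transcripts moved together, H4f3 and H1f2 from the same stretch of chromosome 17 and H2ac25 from chromosome 10. Each is the 250 bases before the annotated start in RefSeq, on build GRCr8 and read on the gene's own strand, and capitals mark TATAAA, known as the TATA box, CCAAT, a binding site of the factor NF-Y, and TGACGT, the core of the cAMP response element, wherever they stand on either strand. They lie at chr17:41980342-41980591 (minus strand) for H4f3, chr10:44233033-44233282 (plus strand) for H2ac25 and chr17:41820454-41820703 (minus strand) for H1f2.
H4f3: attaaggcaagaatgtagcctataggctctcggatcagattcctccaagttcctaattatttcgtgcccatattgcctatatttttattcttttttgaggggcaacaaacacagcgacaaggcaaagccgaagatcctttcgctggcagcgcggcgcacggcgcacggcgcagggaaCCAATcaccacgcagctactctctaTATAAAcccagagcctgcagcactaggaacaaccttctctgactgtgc
H2ac25: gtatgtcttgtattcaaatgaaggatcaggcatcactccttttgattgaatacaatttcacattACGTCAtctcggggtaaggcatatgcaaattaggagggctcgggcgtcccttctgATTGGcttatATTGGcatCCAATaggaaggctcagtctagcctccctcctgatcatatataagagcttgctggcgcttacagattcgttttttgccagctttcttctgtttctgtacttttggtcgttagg
H1f2: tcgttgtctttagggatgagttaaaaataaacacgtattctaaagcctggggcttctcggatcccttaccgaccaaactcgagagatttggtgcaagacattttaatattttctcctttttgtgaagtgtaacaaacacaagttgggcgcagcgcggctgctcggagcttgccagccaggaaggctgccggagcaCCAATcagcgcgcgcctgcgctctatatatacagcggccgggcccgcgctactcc

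A CCAAT box was found in each of the 3, and it was present in 37.5% of all 33469 promoter windows of 300 bases (250 before and 50 after the start). Of the genes higher with topotecan first, 74 had such a window and 35.1% of these held CCAAT, and of the lower genes 45 had one and 46.7% held it. TATAAA was present in 14.2% of all windows, 6.76% of the higher and 6.67% of the lower genes, and TGACGT in 7.94%, 14.9% and 11.1%. Among the other motifs searched, GGGCGG, the GC box, stood in 33.1%, 67.6% and 80.0%, and CACGTG in 6.42%, 12.2% and 20.0%. TGACTCA stood in 4.63%, 5.41% and 0.00%, and TTCGCGC or TTGGCGC in 3.66%, 9.46% and 2.22%. The 33469 windows include genes that were not tested here, so they are no matched background for the called genes. These matches are descriptions of letters in the windows.

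Ccr1, a chemokine receptor of myeloid cells, had also risen with topotecan first. It gave 9.97, 10.01, 10.41 and 10.39 in topotecan/D5W rats, 8.46, 8.85, 7.92 and 8.72 in NaCl/D5W rats, 9.03, 9.40, 9.65 and 8.50 in D5W/topotecan rats and 8.66, 8.85, 8.75 and 9.20 in D5W/NaCl rats. The topotecan/D5W rats lay above the rest, and the difference was 1.43 with an SE of 0.31 (adjusted p = 3.50e-04). Thbd, the thrombomodulin gene, had risen by 1.39 with topotecan first and stood at -0.02 with topotecan second, and 2 of its probe sets were called. Ccn2, a matricellular protein induced by mechanical and TGF-beta signals, differed by 1.57 with an SE of 0.46 (adjusted p = 0.0094). The Ccn2 call was the least certain of these, being lost in 13 of the 16 fits that left out 1 rat, over which its difference ranged between 1.40 and 1.88.

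**Figure D2:**
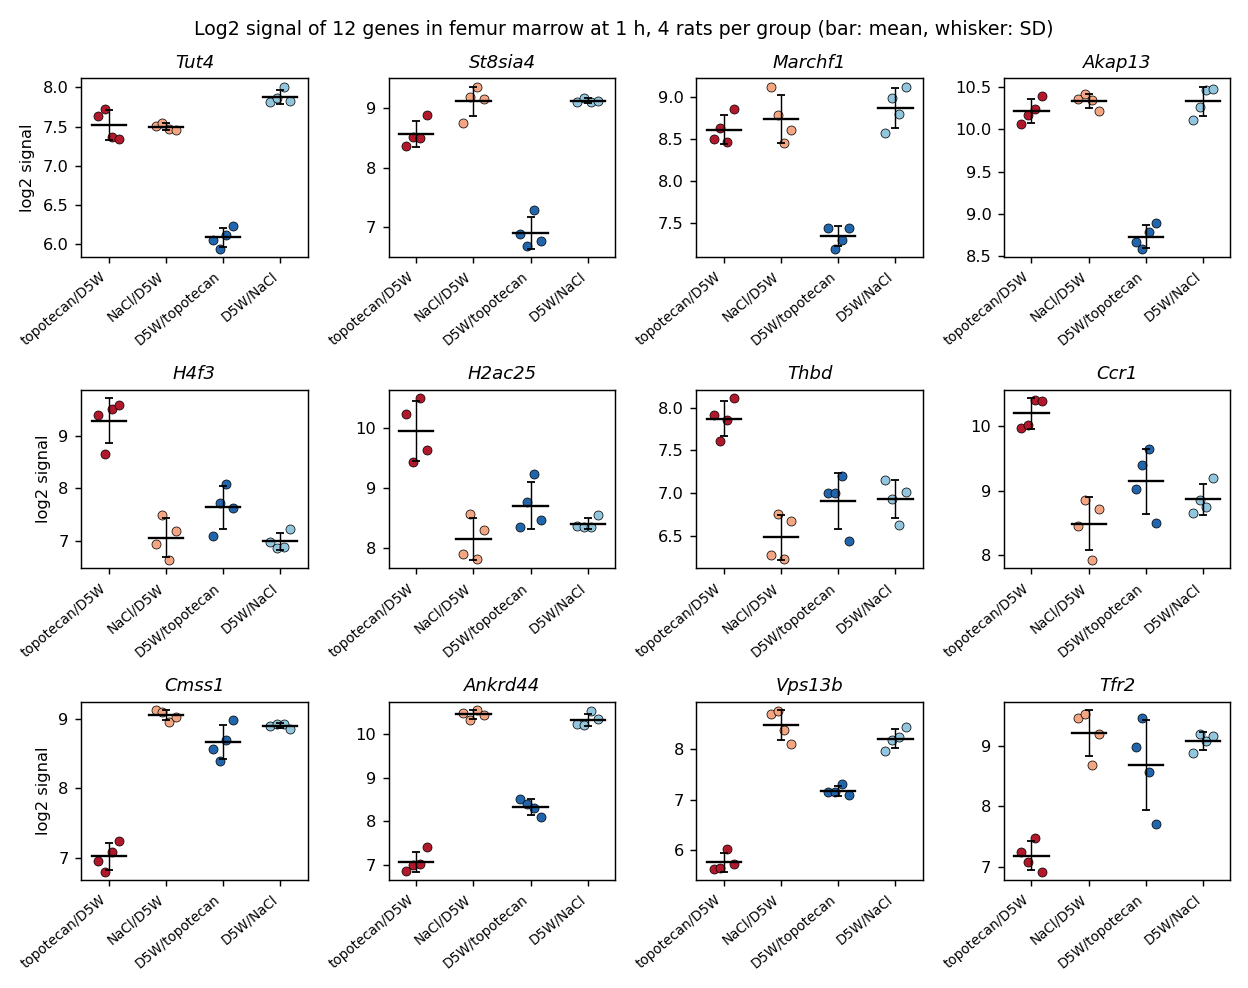
Log2 signal (vertical axes) of 12 genes in the 4 rats of each group at 1 h, with the mean as a bar and the SD as a whisker. In Tut4, St8sia4, Marchf1 and Akap13 the D5W/topotecan rats lie lowest, in H4f3, H2ac25, Thbd and Ccr1 the topotecan/D5W rats lie highest, and in Cmss1, Ankrd44, Vps13b and Tfr2 the topotecan/D5W rats lie lowest.

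Among the genes that were lower with topotecan first, very long genes were frequent. Cmss1, the homolog of a yeast protein of the small ribosomal subunit, spans 298 kb and gave 6.96, 6.80, 7.09 and 7.25 in topotecan/D5W rats against 9.13, 9.09, 8.96 and 9.03 in NaCl/D5W rats. With topotecan second it gave 8.57, 8.40, 8.70 and 8.98 against 8.89, 8.93, 8.93 and 8.85 in D5W/NaCl rats. The topotecan/D5W rats lay below all others, and the D5W/topotecan rats overlapped their vehicle. The difference was -1.79 with an SE of 0.18 (adjusted p = 8.02e-12). Bckdhb, a subunit of branched-chain ketoacid dehydrogenase, had the same difference, -1.79, with responses of -1.81 to topotecan first and -0.02 to topotecan second.

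Other genes had fallen under both orders and further with topotecan first. Ankrd44, a regulatory subunit of protein phosphatase 6 encoded by a gene of 301 kb, gave 6.86, 7.00, 7.02 and 7.40 in topotecan/D5W rats, 10.48, 10.33, 10.56 and 10.44 in NaCl/D5W rats, 8.52, 8.40, 8.30 and 8.09 in D5W/topotecan rats and 10.23, 10.21, 10.52 and 10.35 in D5W/NaCl rats. Both topotecan groups were clear of the vehicles and of each other, with a response of -3.39 to topotecan first and a difference of -1.38 (SE 0.22, adjusted p = 2.33e-06). Vps13b, a lipid transfer protein of the Golgi encoded over 577 kb, gave 5.62, 5.65, 6.03 and 5.73 in topotecan/D5W rats, 8.69, 8.76, 8.38 and 8.11 in NaCl/D5W rats, 7.15, 7.16, 7.31 and 7.09 in D5W/topotecan rats and 7.97, 8.18, 8.25 and 8.44 in D5W/NaCl rats. It showed the same order of groups, with a difference of -1.70 (SE 0.21, adjusted p = 3.57e-09).

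Pola1, which encodes the polymerase that lays down the first bases of each new DNA strand, gave 6.47, 6.17, 6.79 and 6.47 in topotecan/D5W rats, 8.93, 9.03, 8.86 and 9.00 in NaCl/D5W rats, 7.82, 8.24, 8.33 and 7.69 in D5W/topotecan rats and 8.78, 8.84, 9.30 and 9.35 in D5W/NaCl rats. The topotecan groups did not overlap with each other or with a vehicle, and the difference was -1.43 with an SE of 0.22 (adjusted p = 1.19e-06) over a gene of 314 kb. Faf1, an adaptor of the segregase p97, had the smallest adjusted p of those described (-1.71, SE 0.13, adjusted p = 1.74e-16), with responses of -2.47 and -0.76. Stag1, a cohesin subunit, differed by -1.26, and Arid1b, a subunit of the BAF chromatin remodeler, by -1.08. Both were called as fallen under both orders, and the Arid1b call was lost in 3 of the 16 fits without 1 rat (D5W/NaCl rat 20 and topotecan/D5W rats 31 and 32), where its difference came down to -0.96 at the least.

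Some genes lower with topotecan first were short. Bex4, a gene of 1.43 kb, had responses of -2.26 to topotecan first and -0.51 to topotecan second, and a difference of -1.74 with an SE of 0.36 (adjusted p = 1.65e-04). Tfr2, which encodes transferrin receptor 2, an iron sensor of erythroid and liver cells, gave 7.24, 7.08, 7.48 and 6.91 in topotecan/D5W rats, 9.46, 9.53, 8.69 and 9.19 in NaCl/D5W rats, 8.98, 9.46, 8.57 and 7.71 in D5W/topotecan rats and 8.88, 9.20, 9.08 and 9.16 in D5W/NaCl rats. The D5W/topotecan rats spread widely and overlapped their vehicle, and the difference was -1.64 with an SE of 0.30 (adjusted p = 2.27e-05). Hsph1, a large heat shock protein and exchange factor for Hsp70, differed by -1.47 with an SE of 0.35 (adjusted p = 0.00117), and its difference was -1.20 and not called without D5W/topotecan rat 92.

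When each rat was expressed relative to the mean of its own vehicle group, the 4 topotecan/D5W rats and the 4 D5W/topotecan rats did not overlap for all 128 higher calls and for 66 of the 68 lower calls. Over all probe sets, the rats were separate in the higher direction for 13.4% and in the lower direction for 17.4%. Of the 136 genes called, 55 had further probe sets on the array. For 12 of these more than 1 probe set was called, never in opposite directions, and of 68 uncalled probe sets of called genes 66 had the sign of the call. Without topotecan/D5W rat 25, the library with the raised muscle genes, 226 probe sets were called (149 higher and 77 lower), and 181 of the 196 were kept. Within code columns 01 and 02 alone, 236 probe sets were called, 37.7% of them higher, and within columns 03 and 04 alone 258 were called, 79.5% of them higher, against 65.3% with all rats. All 128 higher and all 68 lower calls kept their sign in both. The calls were chosen on these same rats, so the kept signs and the lack of overlap above are largely set by that choice. In both code sets the D5W/topotecan rats also remained in a column of their own. When topotecan/D5W was set directly against D5W/topotecan, as with the vehicles pooled, 158 probe sets were called (1.26%), 122 higher (0.974%) and 36 lower (0.287%), and 122 of the 196 were kept. For the 68 lower calls the vehicles themselves differed by a median of 0.20 (NaCl/D5W minus D5W/NaCl), above 0 in 59, and for the 128 higher calls by -0.08, where all probe sets had 0.05.

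Called genes were longer than most. Higher genes had a median length of 110 kb, and 64 of 86 (74.4%) lay between 50 and 200 kb, against 24.6% of all 7810 genes, whose median was 24.2 kb. Of the 86, 7 (8.14%) were over 200 kb long: Akap13, Cdyl, Marchf1, Ssh2, Foxp1, Runx1 and Sgms1. Lower genes had a median of 170 kb, and 24 of 50 (48.0%) were over 200 kb long, against 4.12% of all genes. Lengths are those of RefSeq gene models on build GRCr8.

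Across all probe sets with a gene length, the response to both orders changed with length, but on a different course. Medians with topotecan first were 0.10 for genes under 5 kb (1055 probe sets), -0.08 for 20 to 50 kb (2832), -0.24 for 50 to 100 kb (1676), -0.45 for 100 to 200 kb (1032) and -0.68 over 200 kb (435). With topotecan second they were 0.21, -0.08, -0.36, -0.53 and -0.46 in the same order of lengths. Medians over 200 kb were thus below those of 100 to 200 kb with topotecan first and not with topotecan second. In finer bins, added after the data were seen, they were -0.67 for 200 to 300 kb, -0.72 for 300 to 500 kb and -0.66 over 500 kb with topotecan first, with no steady decline, and -0.49, -0.43 and -0.45 with topotecan second. The median signal also fell with length, from 9.72 under 5 kb to 8.60 at 100 to 200 kb and 7.38 over 500 kb. Its part in these medians was not tested. Of the probe sets over 200 kb, 64.1% were lower at adjusted p under 0.01 with topotecan first, against 25.0% of all probe sets, and 51.0% with topotecan second, against 21.3% of all.

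The median order difference changed sign with length. It was -0.15 under 5 kb, -0.15 for 5 to 10 kb, -0.11 for 10 to 20 kb, -0.01 for 20 to 50 kb, 0.13 for 50 to 100 kb, 0.08 for 100 to 200 kb and -0.23 over 200 kb, beside -0.04 over all probe sets. At adjusted p under 0.01 without a minimum fold, 12.9% of probe sets were higher and 3.52% lower at 50 to 100 kb, and 13.9% higher and 4.75% lower at 100 to 200 kb. Over 200 kb the shares were turned round, with 4.37% higher and 17.7% lower, and under 5 kb 1.23% were higher and 11.7% lower. Over all probe sets, 606 were higher (4.84%) and 918 lower (7.33%) at that threshold. The finer bins gave -0.17 for 200 to 300 kb (228 probe sets), -0.35 for 300 to 500 kb (147) and -0.20 over 500 kb (60).

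The pattern was also read in single rats. For genes over 200 kb, the median difference from the vehicle mean was -0.72, -0.66, -0.71 and -0.67 in topotecan/D5W rats and between -0.03 and 0.06 in NaCl/D5W rats. It was -0.50, -0.40, -0.41 and -0.52 in D5W/topotecan rats and between -0.09 and 0.06 in D5W/NaCl rats. The topotecan groups did not overlap, and topotecan/D5W rats were lowest. For genes of 50 to 100 kb, topotecan/D5W rats gave -0.30, -0.27, -0.19 and -0.19 and D5W/topotecan rats -0.42, -0.38, -0.31 and -0.38, so that D5W/topotecan rats were lowest. The closest rats of these 2 groups, at -0.30 and -0.31, nearly met. Vehicle rats spread more widely than that gap, between -0.03 and 0.05 in NaCl/D5W and between -0.12 and 0.09 in D5W/NaCl. Within code columns 01 and 02 alone, the medians of the order difference were 0.03 for 50 to 100 kb and -0.29 over 200 kb, and within columns 03 and 04 alone they were 0.21 and -0.18. For 100 to 200 kb they were -0.00 in columns 01 and 02 and 0.13 in columns 03 and 04.

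**Figure D3:**
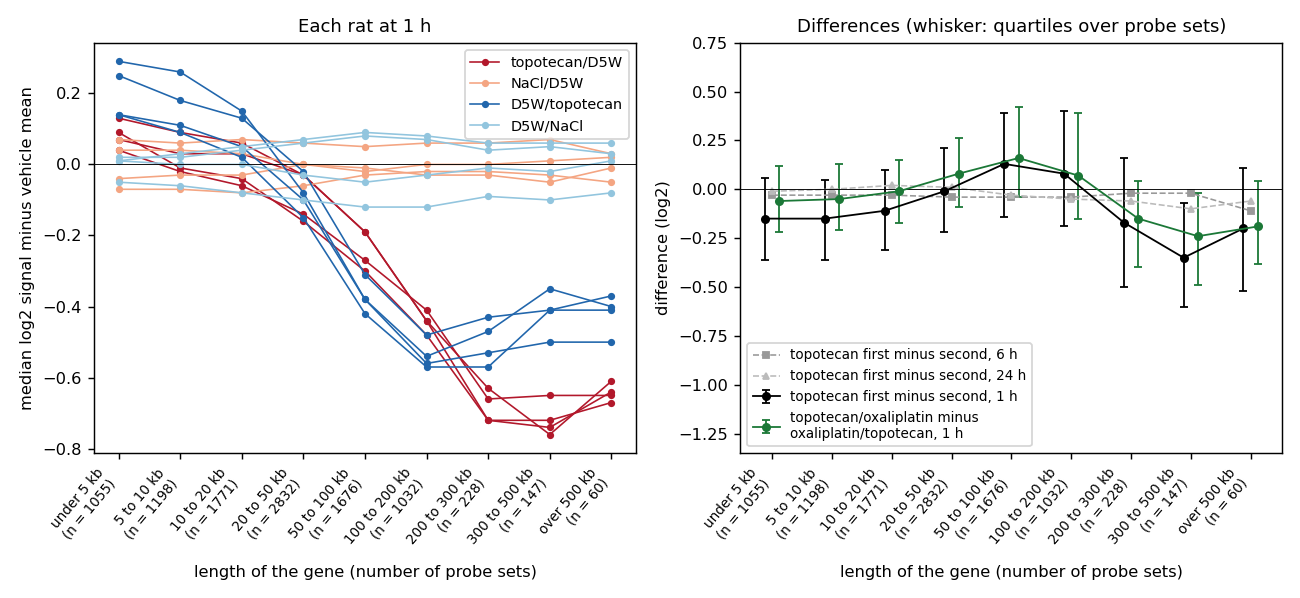
Left, median log2 signal of each rat at 1 h minus the mean of its vehicle group, by length of the gene. Right, the order difference at 1, 6 and 24 h and the direct difference between the combination groups at 1 h (log2), as medians with quartiles over probe sets. The median order difference at 1 h lies above 0 for 50 to 200 kb and below 0 for shorter and longer genes, and at 6 and 24 h it stays near 0. For the combination groups the median is also above 0 at 20 to 50 kb (0.08).

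Gene lists were read by how many members passed adjusted p under 0.01 without a minimum fold, over 1 probe set per gene, where 4.88% of all 7810 genes were higher with topotecan first and 9.15% were lower, with a median of -0.06. Histone genes had 4 of 15 members higher and 1 lower, with a median of 0.36. Within code columns 01 and 02 alone, 1 member was higher (median 0.22), and within columns 03 and 04 alone 2 were (median 0.51). Besides H4f3, H2ac25 and H1f2, the passing members were H3c1 (0.95), named after its value was seen, and Macroh2a1, a variant histone (-0.51). With topotecan first 9 of the 15 had risen, and with topotecan second 1 had, where 8.26% and 9.33% of all genes had risen. The DNA replication list, in contrast, had 0 of 44 members higher and 8 lower, Pola1 the only one of them past 2-fold. Its medians were -0.41 with topotecan first and -0.13 with topotecan second, and 29 members had fallen with topotecan first and 10 with topotecan second, where 27.6% and 21.0% of all genes had fallen. In code columns 03 and 04 alone the median order difference of this list was -0.05, against -0.57 in columns 01 and 02.

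Mitosis genes had 7 of 46 members higher and 0 lower, with a median of 0.28. Among the 7 were Ect2, which activates RhoA for cytokinesis (1.06), and Kif18a, a kinesin that sets chromosome alignment (1.17). The 2-fold call of Ect2 was lost in 3 of the fits without 1 rat (lowest 0.93). The list median of the order difference was 0.02 in code columns 01 and 02 and 0.52 in columns 03 and 04. Against vehicle, mitosis genes were lower under both orders, with medians of -0.36 with topotecan first and -0.55 with topotecan second. Of the 46, 17 and 33 had fallen, where 27.6% and 21.0% of all genes had. Histone modifiers and chromatin remodelers had 24 of 74 members higher and 3 lower, with a median of 0.29 and a median length of 77.6 kb. Its medians against vehicle were -0.26 with topotecan first and -0.57 with topotecan second. Kmt2e (0.76) and Arid1a (0.46) were among its most abundant members.

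Blood lineage transcription factors had 10 of 61 members higher and 4 lower (median 0.14). The lower share, 6.56%, was below the 9.15% of all genes. The 4 lower ones were Meis1 (-0.93), Nfia (-1.20), Tcf12 (-0.86) and Zbtb20 (-0.85), of which Tcf12 and Zbtb20 were named after their values were seen. Other probe sets of Nfia gave -0.52 and -0.12 and were not called. Ubiquitin ligases and related enzymes had 21 of 142 higher and 2 lower (median 0.16), and protein phosphatase subunits had 9 of 47 higher and 3 lower. The 3 lower phosphatase members were Ankrd44 (-1.38), Ppp3ca, a catalytic subunit of calcineurin (-1.16), and Ppp4c (-0.69), the last named after its value was seen. B cell genes had 2 of 14 higher, the adaptor Blnk (0.99), named after its value was seen, and Ms4a1, which encodes CD20 (1.08). The Ms4a1 call was lost in 11 of the 16 fits without 1 rat. The mean log2 signal of the B cell list per rat lay between 9.68 and 10.15 in topotecan/D5W rats, 9.89 and 10.23 in NaCl/D5W rats, 9.47 and 9.82 in D5W/topotecan rats and 10.03 and 10.34 in D5W/NaCl rats, and its part in the results was not tested.

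Several housekeeping lists lay on the other side. Mitochondrial ribosomal proteins had 0 of 72 members higher and 34 lower, with a median of -0.41, where all probe sets of genes 5 to 10 kb long had -0.15 and the list's median length was 6.38 kb. Its medians against vehicle were -0.34 with topotecan first and 0.08 with topotecan second. Heat shock proteins and chaperonins had 22 of 54 lower (median -0.52), proteasome subunits 17 of 45 (median -0.35) and subunits of oxidative phosphorylation 24 of 82 (median -0.25), each with 0 higher. Their median lengths were 18.7 kb for the heat shock list, 10.4 kb for the proteasome and 7.13 kb for oxidative phosphorylation. With 2 rats per group in each code set, the counts of lower members in columns 01 and 02 and in columns 03 and 04 were 16 and 4 for the mitochondrial ribosome, 10 and 11 for heat shock proteins, 10 and 5 for the proteasome and 7 and 2 for oxidative phosphorylation, with medians between -0.57 and -0.21. Named members were Hspd1, the mitochondrial chaperonin (-0.72), its partner Hspe1 (-0.72), Cct5 of the cytosolic chaperonin (-0.53), Psma6 of the proteasome core (-0.44) and Atp5f1a of the ATP synthase (-0.36). In all 4 lists topotecan second left the median between 0.00 and 0.08 of vehicle.

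Splicing factors had 13 of 83 members lower and 2 higher. The list of transcription elongation factors and RNA polymerase II subunits was mixed, with 9 of 40 lower and 4 higher. The higher ones were Aff1 (0.93), Aff4 (0.71), Cdk13 (1.10) and Ell (0.44), which act in elongation, named after their values were seen apart from Cdk13. Cytosolic ribosomal proteins had 0 of 44 passing in either direction, with a median of -0.06, although they had a median length of 3.64 kb.

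Some lists responded strongly to topotecan and hardly by order. Of 19 p53 target genes, 17 had risen with topotecan first and 14 with topotecan second, with medians of 1.54 and 1.36, and 0 passed for the order difference, whose median was 0.23. Mdm2, the ubiquitin ligase of p53, differed by 0.59, Ccng1 by 0.42 and Gadd45a by 0.43, none of them past the threshold. Of 38 immediate early genes, 1 passed, Egr1 at 0.91, named after its value was seen, and the medians were 0.60 with topotecan first and 0.61 with topotecan second. A p that misses the threshold does not show that the orders were alike for these genes.

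**Figure D4:**
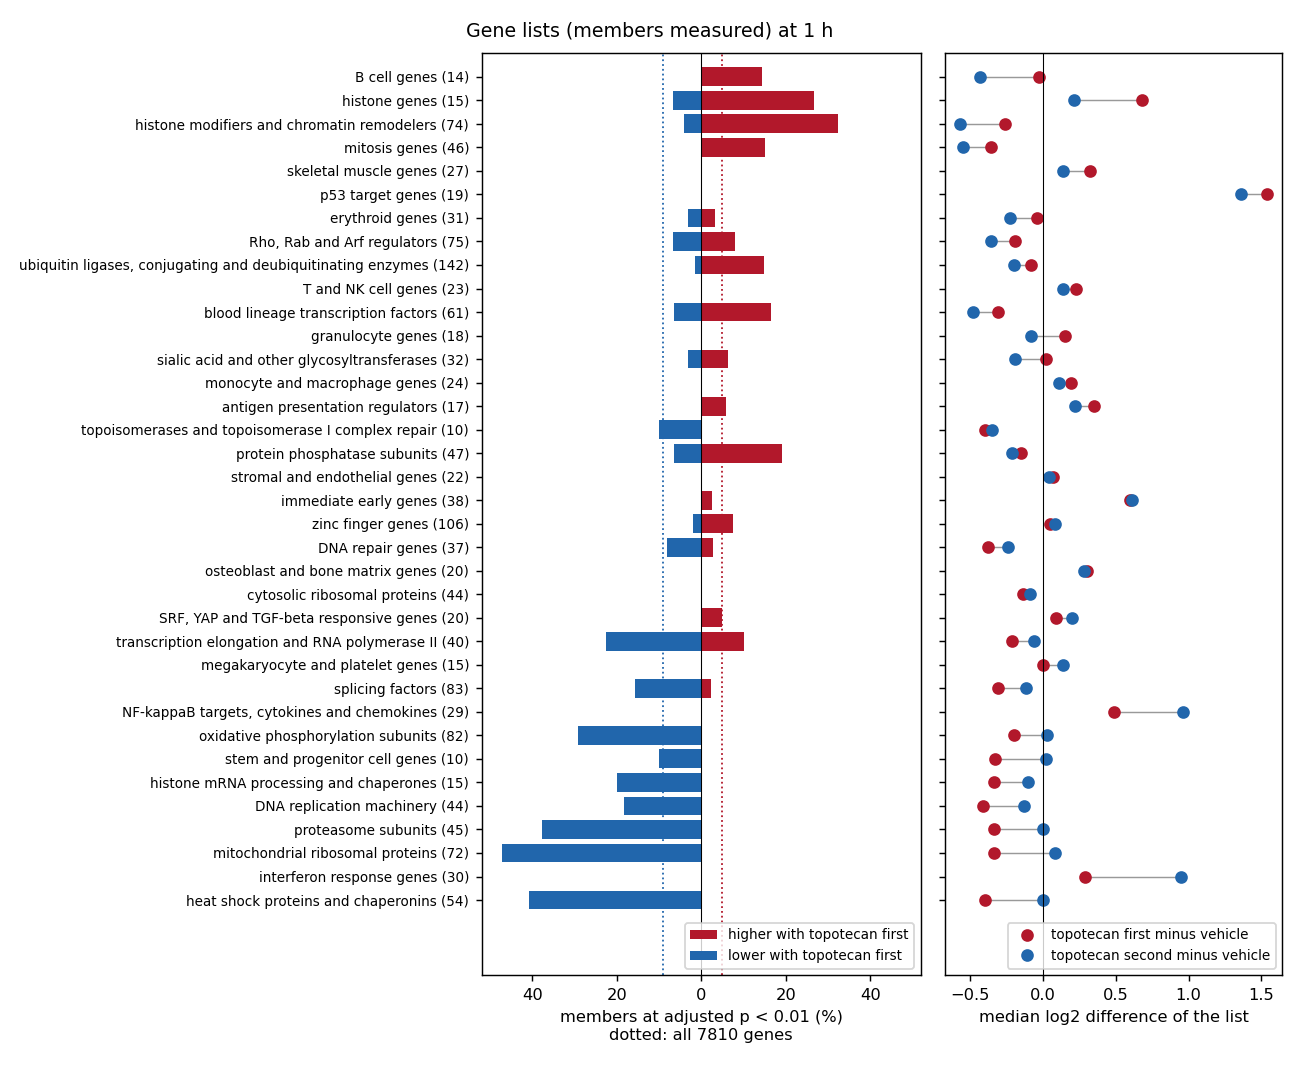
Left, share of measured members of each list (number in brackets) that were higher or lower with topotecan first at adjusted p under 0.01, with dotted lines for all 7810 genes. Right, median log2 difference from vehicle of each list with topotecan first and with topotecan second. Mitochondrial ribosomal proteins had the largest lower share (34 of 72) and histone modifiers the largest higher share (24 of 74).

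The same probe sets were then read in rats that took no part in the order difference, those given topotecan before oxaliplatin at 15 mg/kg or after it and sampled at 1 h. Both of these groups lay in code columns 02 and 04, so this direct comparison lies within the same columns. Oxaliplatin changed place together with topotecan, so the order of the 1 drug and that of the other cannot be told apart here. No vehicle group was subtracted. The direct comparison gave 150 calls of its own (1.20%), 127 of them higher with topotecan before oxaliplatin (1.01%) and 23 lower (0.184%). Of the 128 probe sets higher with topotecan first beside vehicle, 128 were also higher in topotecan/oxaliplatin rats, with a median of 1.00, and 120 passed adjusted p under 0.01 in that direction, against 11.4% of all probe sets. Of the 68 lower ones, 66 were also lower, with a median of -0.83, and 49 passed, against 7.75% of all. With the 2-fold minimum, 64 and 18 were called.

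Named genes gave like values in these rats. St8sia4 was 7.80, 8.13, 8.58 and 8.57 in topotecan/oxaliplatin rats against 6.05, 5.96, 5.94 and 6.37 in oxaliplatin/topotecan rats, a difference of 2.19 with an SE of 0.19 (adjusted p = 2.90e-15). H4f3 was 9.04, 9.08, 9.40 and 8.99 in topotecan/oxaliplatin rats against 7.11, 7.00, 7.96 and 7.18 in oxaliplatin/topotecan rats (1.81, adjusted p = 1.77e-07). Ankrd44 was 6.70, 7.26, 6.06 and 7.12 in topotecan/oxaliplatin rats against 8.24, 8.18, 8.41 and 8.82 in oxaliplatin/topotecan rats (-1.63, adjusted p = 1.74e-13). In each of these the 2 groups were separate. Psmd14 (-0.11), Emg1 (-0.43) and Thop1 (-0.44), genes of a proteasome subunit, an rRNA methyltransferase and a peptidase that were called lower with topotecan first beside vehicle, did not pass in the combination rats. By gene length the direct difference had medians of -0.06 under 5 kb, 0.16 at 50 to 100 kb, 0.07 at 100 to 200 kb and -0.19 over 200 kb.

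At 6 h, with 4 rats per group, and at 24 h, with 3 topotecan/D5W, 4 NaCl/D5W, 4 D5W/topotecan and 3 D5W/NaCl rats, the order of topotecan gave 0 calls by limma, with 369 and 453 probe sets at an unadjusted p under 0.05. The 128 higher probe sets had median order differences of -0.11 at 6 h and -0.05 at 24 h, where all probe sets had -0.04 and -0.01. The 68 lower ones had -0.01 at 6 h and 0.10 at 24 h. The change with time was tested directly: the order difference at 1 h minus that at 6 h was called for 194 probe sets (1.55%), 138 higher (1.10%) and 56 lower (0.447%). At 1 h minus that at 24 h it was called for 226 (1.80%), 122 higher (0.974%) and 104 lower (0.830%). Of the 128, 90 were called higher in the comparison with 6 h and 77 in that with 24 h, and of the 68, 40 and 43 were called lower. Both comparisons share the values at 1 h that chose these probe sets.

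Genes took different courses to that common level. The higher set was near vehicle at 6 h under both orders, with medians of 0.04 with topotecan first and 0.18 with topotecan second, whereas the lower set remained below vehicle, with -0.53 and -0.54. Tut4 stood at 0.36 with topotecan first and 0.33 with topotecan second at 6 h, and Ankrd44 at 0.28 and 0.31. H4f3 stood at 2.08 with topotecan first and at 2.53 with topotecan second at 6 h, after 2.22 and 0.64 at 1 h. Ccn2 stood at 3.80 and 3.87, and Tfr2 at -3.49 and -3.11, in the same order of groups. Pola1 was at -1.53 under both orders.

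**Figure D5:**
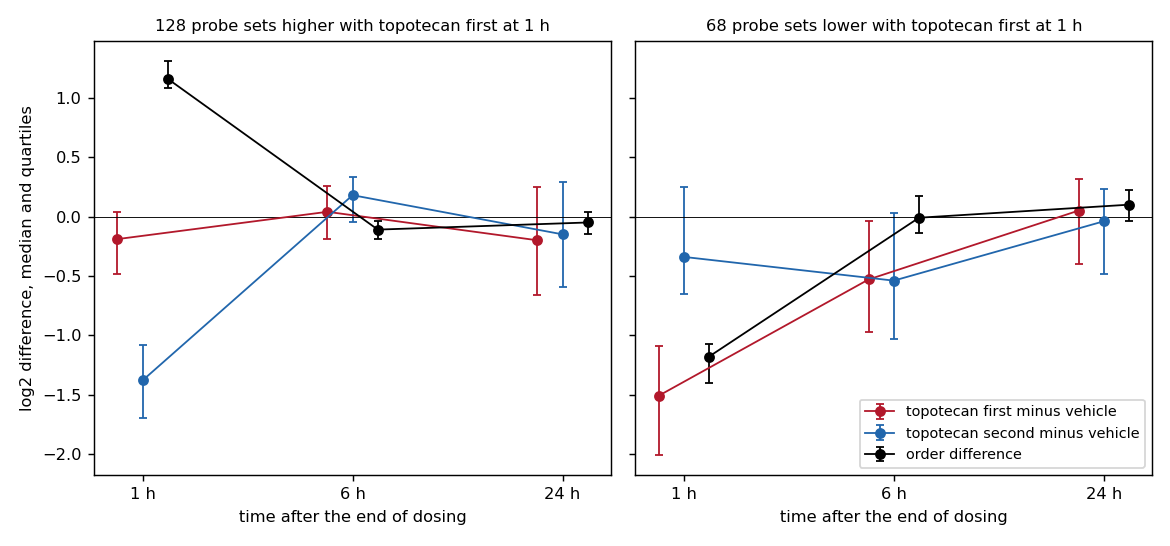
Median log2 difference from vehicle with topotecan first and with topotecan second, and median order difference, for the 128 higher and the 68 lower probe sets at 1, 6 and 24 h after dosing, with quartiles over probe sets as whiskers. The order difference is present at 1 h, where it chose the probe sets, and lies between -0.11 and 0.10 at the later times.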

How the data were processed

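Marrow RNA (integrity number of at least 7.5 per the methods) of single rats was hybridised to Affymetrix rat arrays. The authors normalized the arrays by robust multi-array averaging (RMA), filtered probe sets and deposited log2 values, which were used as given, so nothing below rests on raw intensities. Depth has no counterpart here and the number of arrays limits the precision. Groups were taken from the labels. All 93 arrays were fitted as 24 means of treatment and time with limma 3.58.1 in R 4.3.3, so the spread was shared, with Benjamini-Hochberg adjustment over 12532 probe sets, and a call required adjusted p under 0.01 and a log2 difference above 1. Members and gene lists were chosen with earlier results of these data known. Named genes were the 20 highest and 20 lowest called, called list members, the most abundant members of a list, genes reported earlier for this contrast, and Top1. A gene in a list stood for its probe set of highest mean. Promoters and lengths came from RefSeq on GRCr8. In data simulated for the order of topotecan over 12532 probe sets, 88 of 100 changes of 1.5 and 99 of 100 of 3 (log2) were called, and 0 unchanged ones. Alternatives were other array subsets, normalizations, thresholds, code columns and leaving out each rat.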

Additional observations from a re-analysis of the deposited data

Results flagged for a closer look

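The order of topotecan changed the response of 196 probe sets at 1 h. That difference itself differed from the one at 6 h for 194 probe sets and from the one at 24 h for 226.

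In 11 of the 260 groups of 4 rats examined, 1 rat lay far from the other 3 (by Dixon's ratio of gap to range), and chance gives about 1 in 20. Among the topotecan/D5W rats, Ets1 was 10.92 in rat 25 (the others 11.00 to 11.01), Runx1 10.25 in rat 31 (10.42 to 10.45), and in rat 32 Plcb4, a phospholipase gene, was 7.30 (6.70 to 6.78) and Psmd14 6.11 (5.92 to 5.95). Among the D5W/topotecan rats, Rev3l, the catalytic subunit of a translesion polymerase, was 7.77 in rat 91 (7.35 to 7.38), and Thop1 was 9.11 in rat 92 (7.83 to 7.99). Among the D5W/NaCl rats, rat 20 had H2ac25 at 8.54 (8.35 to 8.36) and Ttc27 at 8.93 (9.34 to 9.39), and Dym was 9.42 in rat 19 (9.27 to 9.29). The mean of the skeletal muscle genes was 7.48 in topotecan/D5W rat 25 (6.28 to 6.34 in the others) and 6.42 in NaCl/D5W rat 1 (6.16 to 6.20).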

How the results depend on the processing

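The order difference at 1 h gave 153 to 236 calls under other array subsets, priors, normalizations, filters, pooled vehicles and the code set as a block, against 196, and 258 in code columns 03 and 04. With vehicles pooled, 36 were lower in place of 68 and 14 named genes lost the call. It moved to 1306 calls at adjusted p under 0.05 and 1.5-fold (658 higher and 648 lower), 1524 without a minimum fold (606 and 918) and 119 with 1 probe set per gene (72 and 47). A second quantile normalization gave 98 calls for the combination groups (70.4% higher, against 84.7%), 426 for topotecan first (40.6% higher, against 27.3%) and 547 for topotecan second (34.6%, against 21.9%). The median over all probe sets with topotecan first was then 0.01, against -0.09. The cause of these moves was not tested.

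Without 1 rat, calls ranged between 172 and 237 for the order difference, 489 and 562 for topotecan first, 617 and 721 for topotecan second, 146 and 186 for the direct comparison of the treated groups (158), and 123 and 206 for the combination groups. The vehicles and the later times stayed at 0 by limma. Of 196 calls, 109 were kept in all 16 such fits. Of 63 named genes called, 45 kept the call, and none of the named genes changed sign. Psmd14 lost it in 10 fits, its difference lying between -1.29 and -1.01, and its other probe sets gave -0.49 and -0.44. No paired analysis was possible because each animal number occurs once and each rat gave 1 array. With 3 or 4 rats per group, small order differences may be missed.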

Other observations

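Interferon response genes (30 measured) had medians of 0.29 with topotecan first and 0.95 with topotecan second, and 29 NF-kappaB targets, cytokines and chemokines had 0.49 and 0.96. D5W/topotecan rats spread widely, with list means of 8.78 to 10.65 and 8.25 to 10.31, against 8.97 to 9.30 and 8.47 to 8.97 in topotecan/D5W rats. The medians of the order difference were -0.47 and -0.23 (in code columns 01 and 02 -0.17 and 0.16, in columns 03 and 04 -0.61 and -0.62, so that the NF-kappaB list changed sign), and 0 members of either list passed adjusted p under 0.01 by limma. Of 31 erythroid genes, Gypc, which encodes a glycophorin, was the 1 that was higher and Tfr2 the 1 that was lower, Gypc being named after its values were seen. The granulocyte, T and NK cell, monocyte, megakaryocyte, osteoblast, stromal, adipocyte and skeletal muscle lists had 0 members passing. Of 10 topoisomerase and repair genes, Tdp1, which removes trapped topoisomerase I from DNA, was the 1 that passed, lower with topotecan first, and it was named after its value was seen. Uty, a demethylase gene on chromosome Y, differed by 1.71 with an SE of 0.18 (adjusted p = 5.11e-11), with responses of -0.73 to topotecan first and -2.45 to topotecan second.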
